A study of Mus musculus with 17 samples.

Results

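Solute carriers are membrane proteins that move small molecules such as sugars, lactate, amino acids, ions and nucleosides across the plasma membrane or the membranes of organelles. Their transcripts were followed here in brain myeloid cells of mice. The members were the genes whose symbol starts with Slc and a digit, apart from the glutamate carrier Slc1a3 and the iron-handling carriers Slc40a1 and Slc11a1. Of 265 such symbols among the 13501 genes of the deposited table, 262 were members, and 234 of them had a normalised read count of at least 10 in at least 3 libraries and were tested together with all 12074 genes that met this filter. The other 28, among them Slc12a5, Slc6a4, Slc18a1, Slc10a1 and Slc24a2, were at or near 0 in most libraries and are not described further. By substrate, the table held 17 sugar carriers, 10 lactate and other monocarboxylate carriers, 40 amino acid carriers, 65 ion carriers, 7 nucleoside carriers, 23 nucleotide sugar carriers and their relatives, 45 mitochondrial carriers of the Slc25 family and 51 carriers of other solutes. Another 4 symbols (Slc4a1ap, Slc7a6os, Slc9a3r1 and Slc9a3r2) met the rule by name but encode proteins that are not carriers.

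The study set transplanted cells beside microglia in a model of Alzheimer's disease. The 17 libraries fell into 5 groups. Normal microglia came from wildtype mice without the 5xFAD transgenes (libraries S20, S21 and S36). The 5xFAD transgenes give amyloid plaques. Microglia of 5xFAD mice were either Trem2-wildtype (WT; S22, S23 and S24) or Trem2-knockout (KO; S25, S26 and S27). The remaining libraries were labelled circulation-derived myeloid cells from Trem2-KO;5XFAD hosts that received bone marrow transplantation and the CSF1 receptor inhibitor PLX5622, with donor cells that were Trem2-WT (S28 to S31) or Trem2-KO (S32 to S35). The microglia were untreated, so cell origin and treatment cannot be told apart in any comparison of transplanted cells with microglia, and every transplant host lacked Trem2. All libraries were made from live CD45+CD11b+ cells sorted from brain, a gate that admits any myeloid cell and that can carry RNA of other cells. The labels give no age or sex and do not say whether libraries of a group came from separate mice, and in 4 of the 5 groups all column names carry the number 1. The p-values below therefore measure the spread between these libraries, which may be technical.

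Microglia take up glucose mainly through the glucose carriers Slc2a1 and Slc2a3, and they are the brain cell in which the fructose carrier Slc2a5 is best known. Cells that run glycolysis release lactate through the monocarboxylate carriers Slc16a1 and Slc16a3, which need the chaperones Bsg or Emb to reach the membrane. Amino acids enter through carriers such as the Slc3a2 heterodimers with Slc7a5, Slc7a7, Slc7a8 or Slc7a11. Lysosomes, Golgi and mitochondria each hold carriers of their own.

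The libraries held 16044078 to 30606394 reads, and members took 0.996% to 1.667% of them. Every transplanted library was below every microglia library in this share. Trem2, the receptor that was knocked out, stood at 31205 to 53908 in the 10 Trem2-WT libraries and at 3962 to 5965 in the 7 Trem2-KO libraries, as labelled. Resident microglia markers (10 genes) summed to 706500 to 896300 in the 9 microglia libraries and to 408000 to 486600 in the 8 transplanted libraries, with all 10 genes above 0 in every group. Markers of circulation-derived macrophages (8 genes) summed to 51020 to 83030 in the microglia libraries and to 335800 to 644400 in the transplanted libraries. Some libraries stood apart from others of their group. S25 and S27 were closer to each other than either was to S26, and their neutrophil marker sums were 116200 and 125100, against 41380 in S26 and 3921 to 4865 in the WT 5xFAD microglia. S30 and S31 were likewise close to each other and held the highest oligodendrocyte marker sums of the series, 23990 and 24200. S34 stood apart from the other KO donor libraries. The 6 genes of the sort and of myeloid cells summed to 216700, 220700 and 216100 in S25, S27 and S34, against 281000 to 463700 in the other libraries.

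Differences are given on the log2(normalised read count + 1) scale with standard errors from limma, and a member is called where the Benjamini-Hochberg adjusted p over all 12074 genes is below 0.05. In bulk RNA, fewer cells of a type and less RNA per cell cannot be told apart. WT 5xFAD microglia against normal microglia gave 8 called members, 7 higher and 1 lower, or 3.42% of the tested members, where 3.78% of all genes were called (2.83% higher and 0.952% lower). Trem2-WT against Trem2-KO 5xFAD microglia gave 11, with 8 higher and 3 lower in WT (4.7%, against 5.09% of all genes, 2.59% higher and 2.5% lower). In both comparisons the share of members called was close to that of genes in general. Trem2-WT against Trem2-KO donors gave 26, with 16 higher and 10 lower (11.1%, against 6.74% of all genes, 3.75% higher and 2.99% lower). Transplanted cells differed from microglia in many more members. WT transplanted cells against WT 5xFAD microglia gave 84, 31 higher and 53 lower (35.9%, against 28.2% of all genes, 13.6% higher and 14.6% lower). KO transplanted cells against KO 5xFAD microglia gave 88, 37 higher and 51 lower (37.6%, against 25.4% of all genes, 11.7% higher and 13.7% lower). WT transplanted cells against KO 5xFAD microglia gave 97, 53 higher and 44 lower (41.5%, against 35.1% of all genes, 17.3% higher and 17.8% lower). In all, 146 of the 234 tested members were called in at least 1 of these 6 comparisons and 88 in none. The comparisons share groups, and this count was not made over all genes, so it cannot be read as a trait of the members.

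Where libraries of both groups are said below not to overlap, all genes give the background. No overlap was found for 33.6% of all genes between WT 5xFAD and normal microglia, 22.2% between WT and KO microglia and 13.7% between WT and KO donors. The share was 41.1% in the WT pair of transplanted cells and microglia, 27.8% in the KO pair and 31.2% between WT transplanted cells and KO microglia.

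The counts of called members depended on a few libraries. All 17 libraries enter 1 fit, and a single library left out is 1 of the groups compared unless said otherwise. The count for 5xFAD against normal microglia fell to 5 without S36, and it was 13 without S26, a library outside this comparison. For Trem2 in microglia it was 3 without S25 and S27, 67 without S26, and 5 or 6 without any other single library of its groups. Outside its groups, it was 19 without S34. For Trem2 in transplanted cells it was 49 without S28, 17 without S33, 9 without S34, 6 without S31 and 5 without S30. Outside its groups, it was 44 without S26 and 40 without S25 and S27. With S30 and S31 both left out, no member passed in limma or edgeR and 6 passed in DESeq2, while 36 had an unadjusted p below 0.05 in limma. The comparisons of transplanted cells with microglia of the same genotype held 64 to 113 called members without any single library, and 55 in the KO comparison without S25 and S27. WT transplanted cells against KO microglia gave 51 without S25 and S27.

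**Figure D1:**
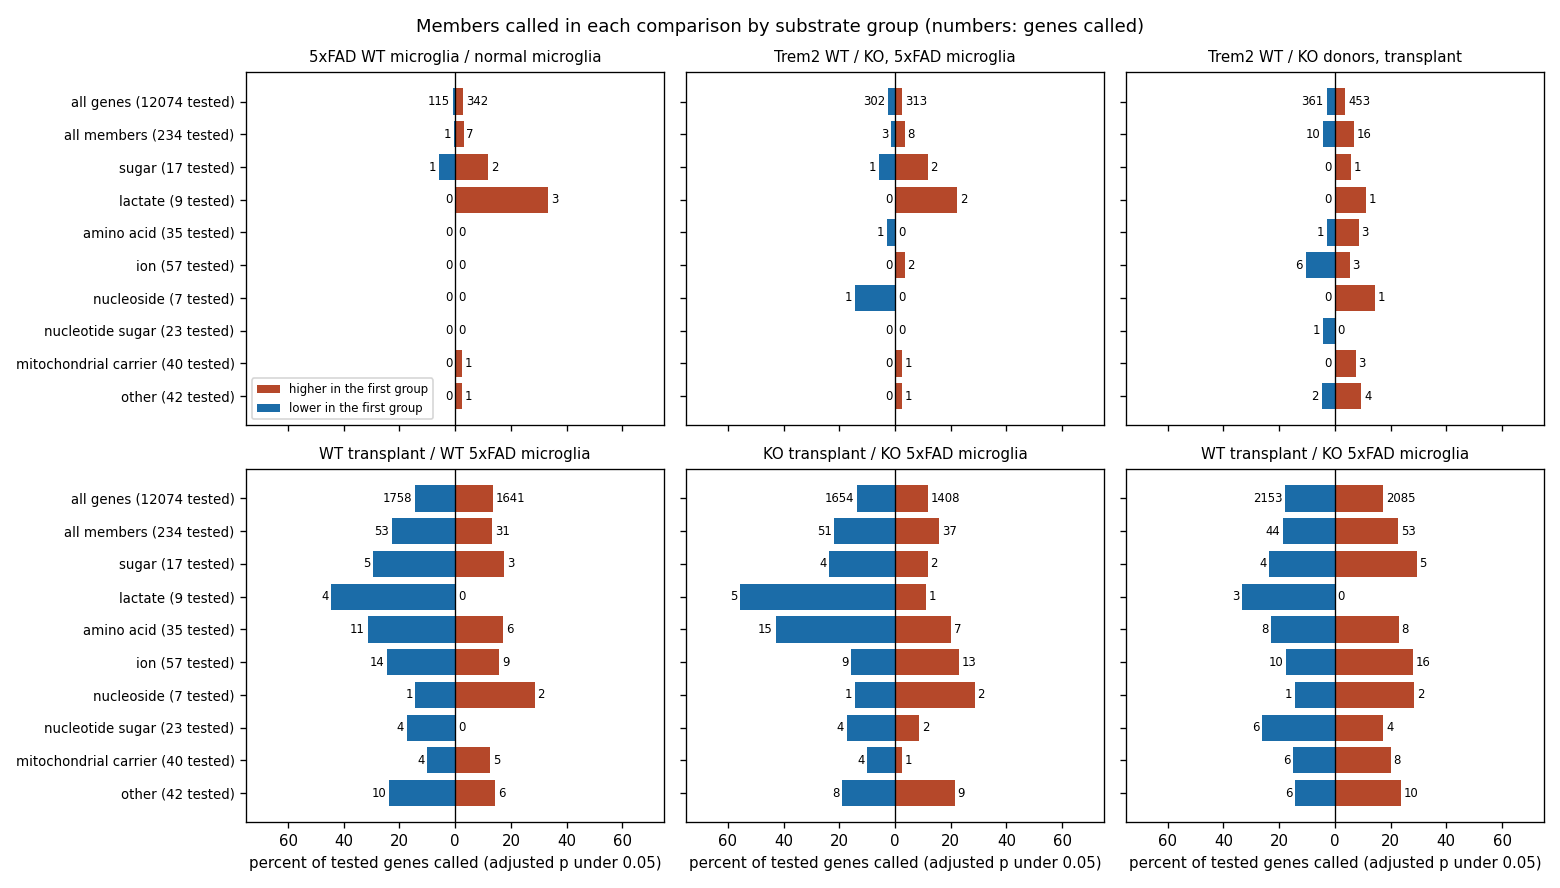
Percent of tested genes called (adjusted p below 0.05) in each of 6 comparisons, by substrate group, with bars to the right for genes higher in the first-named group and to the left for genes lower in it; the number of genes called stands at the end of each bar. The lactate substrate group, which holds lactate and related carriers, has no lower call in WT 5xFAD microglia against normal microglia. It has 4 and 5 lower calls of 9 tested in the comparisons of transplanted cells with microglia of the same genotype.

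The comparisons of transplanted cells with microglia in WT and in KO cells share no libraries and can be set beside each other. Of the members called, 55 were called in both, which is 65.5% of the WT list and 62.5% of the KO list. Of these 55, 21 were higher and 33 lower in transplanted cells in both, and 1, the bicarbonate carrier Slc4a10, went in opposite directions. Across the 234 members, the differences of both comparisons had a Pearson correlation of 0.75, over genes of the same libraries and not over replicates. This overlap and correlation were not computed over all genes, so they cannot be read as particular to the carriers. When all 8 transplanted libraries were set against all 9 microglia libraries, 16 members had every transplanted library above every microglia library (6.84% of tested members, where 5.27% of all genes did) and 20 had every one below (8.55%, where 5.81% did).

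**Figure D2:**
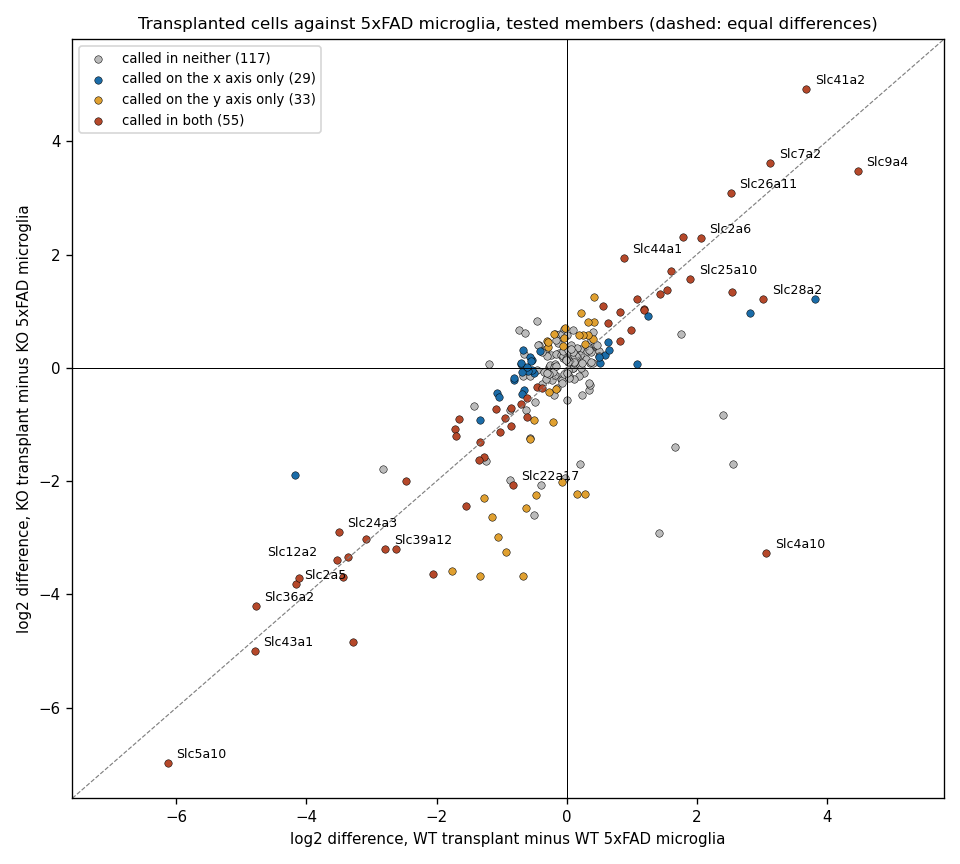
Log2 difference of each of the 234 tested members between transplanted cells and 5xFAD microglia, for WT cells on the x axis and KO cells on the y axis; colours give the comparisons in which a member was called and the dashed line marks equal differences. Most of the 55 members called in both lie near the dashed line. Slc5a10, Slc2a5 and Slc12a2 are among those below 0 on both axes, Slc41a2 and Slc26a11 among those above 0 on both, and Slc4a10 is below 0 on the y axis only.

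Among the sugar carriers, the fructose carrier Slc2a5 was the most abundant member per length in normal microglia and was nearly lost from transplanted cells, whereas its relative Slc2a6, a lysosomal hexose carrier, moved the opposite way. Slc2a5 (chr4:150119283-150144169, GRCm38, GENCODE vM21, protein coding) stood at 27822, 28354 and 26586 in normal microglia S20, S21 and S36, and at 18236, 19113 and 17111 in the WT 5xFAD libraries S22 to S24. In the KO 5xFAD libraries S25, S26 and S27 it stood at 16242, 25733 and 16478. All 8 transplanted libraries were far lower, at 1636, 782, 903 and 909 for WT donors and 2126, 1201, 831 and 1537 for KO donors. The highest transplanted library (2126) was far below the lowest microglia library (16242). The log2 difference from microglia was -4.16 (SE 0.26, adjusted p = 1.16e-09) in WT cells and -3.82 (SE 0.26, adjusted p = 4.67e-09) in KO cells. Scaled by exon length, normal microglia held 8109 ± 267 normalised reads per kb of Slc2a5 (SD, n = 3), rank 1 among the members, and WT transplanted cells held 311 ± 115 (n = 4), rank 50. Between normal and WT 5xFAD microglia the groups did not overlap, but the difference of -0.60 missed the test (adjusted p = 0.297, 95% interval -1.20 to -0.01). The promoter window of Slc2a5 is printed here because this member ranked first per length in normal microglia. It runs from 250 bases before to 50 bases after the RefSeq start (GRCm38.p6). It has no capitals, since none of the letters searched for below occur in it.
Slc2a5 promoter, chr4:150119094-150119393, plus strand: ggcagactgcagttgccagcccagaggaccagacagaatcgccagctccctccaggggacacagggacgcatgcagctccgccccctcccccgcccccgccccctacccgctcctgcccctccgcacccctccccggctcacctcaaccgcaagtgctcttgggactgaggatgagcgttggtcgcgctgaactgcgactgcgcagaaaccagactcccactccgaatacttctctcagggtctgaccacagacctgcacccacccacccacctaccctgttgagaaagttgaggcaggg

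Slc2a6 stood at 225, 214 and 190 in normal microglia S20, S21 and S36, and at 707, 594 and 675 in the WT 5xFAD libraries S22 to S24. In KO 5xFAD microglia it was 582, 286 and 610 in S25, S26 and S27. WT donor cells held 2667, 2397, 2881 and 3058, and KO donor cells held 2445, 2348, 1839 and 2647. The groups thus ordered as normal microglia, 5xFAD microglia, transplanted cells, with no overlap between these 3 steps. The difference was 1.64 between WT 5xFAD and normal microglia (SE 0.22, adjusted p = 0.000139), 2.06 between WT transplanted cells and WT microglia (SE 0.20, adjusted p = 4.24e-07) and 2.30 between KO transplanted cells and KO microglia (SE 0.20, adjusted p = 1.34e-07). The KO microglia overlapped the WT microglia (0.49, adjusted p = 0.199). Within KO microglia, S26 sat apart from S25 and S27 for both carriers, nearer to normal microglia.

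Slc2a1, the main glucose carrier of many cells, was highest in WT 5xFAD microglia. It stood at 2217, 1796 and 1904 in normal microglia S20, S21 and S36, at 3489, 3461 and 3978 in WT 5xFAD S22 to S24, and at 1388, 1810.2 and 1568 in KO 5xFAD S25 to S27. The WT 5xFAD libraries were above all others of the series, including the transplanted cells (1776 to 2638 with WT donors, 1306 to 1834 with KO donors). The difference was 0.89 against normal microglia (SE 0.16, adjusted p = 0.00239) and 1.20 against KO microglia (SE 0.16, adjusted p = 0.000134). The call against KO microglia also held without S25 and S27. In transplanted cells the Trem2 difference was 0.43 (adjusted p = 0.0657, 95% interval 0.14 to 0.72), and the test of WT against KO effect between both cell origins gave -0.78 (adjusted p = 0.0562). For this carrier transplanted cells were lower than microglia in WT cells (-0.69, SE 0.15, adjusted p = 0.00173), while the KO comparison gave 0.08 (adjusted p = 0.745, 95% interval -0.23 to 0.39).

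Most other sugar carriers called in several comparisons were low or moderate in level, but Slc37a2 was high. Slc5a10, a sodium-coupled sugar carrier, held 110 to 298 in the 9 microglia libraries. It was at 0 in 6 of the 8 transplanted libraries, with 12.3 in S28 and 3.43 in S35, and differed by -6.13 in WT and -6.97 in KO cells (adjusted p = 7.4e-06 and 1.93e-06). The glucose-6-phosphate carrier of the endoplasmic reticulum Slc37a2 was higher in WT than in KO 5xFAD microglia by 0.65 (SE 0.14, adjusted p = 0.00923), a call lost without S22, S25 or S27. The neuronal-type glucose carrier Slc2a3 was lower in WT than in KO microglia (-0.95, SE 0.25, adjusted p = 0.0322). Its libraries held 276, 271 and 269 in WT and 576, 524 and 479 in KO microglia, and the call was lost without any 1 library of these groups except S26. The neutrophil marker sum was higher in every one of these KO libraries than in the WT libraries, and its part in the result was not tested. In WT transplanted cells Slc2a3 was higher than in WT microglia (1.08, SE 0.23, adjusted p = 0.00173). Slc37a1 was higher and Slc37a3 lower there (1.09 and -1.08, adjusted p = 0.0152 and 0.000237). The Slc37a1 call was lost without S22 or S23.

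**Figure D3:**
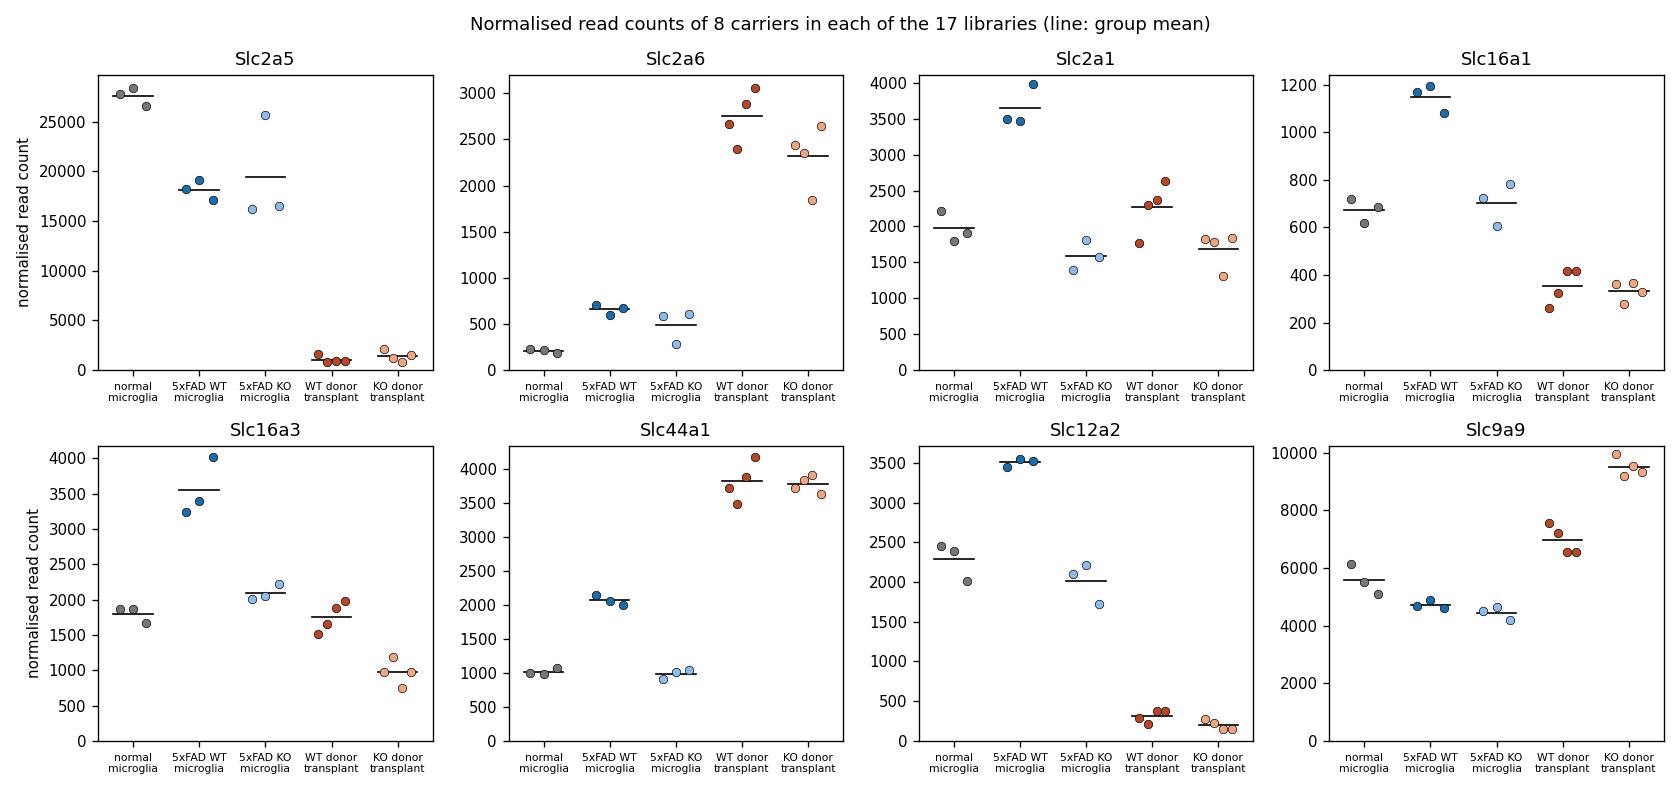
Normalised read count of 8 carriers in each of the 17 libraries, 1 point per library on a linear axis from 0, with a line at the group mean. Slc2a5 and Slc12a2 are low in all 8 transplanted libraries, Slc2a6 and Slc44a1 are highest there, Slc2a1, Slc16a1 and Slc16a3 are highest in the 3 WT 5xFAD libraries, and Slc9a9 is highest in KO donor cells.

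Of the 9 lactate and related carriers tested, 3 were higher and none lower in WT 5xFAD than in normal microglia. In transplanted cells 4 were lower and none higher than in microglia in the WT pair, and 5 were lower and 1 higher in the KO pair. The median difference over the 9 was 0.34 in WT 5xFAD against normal microglia, -0.95 in WT transplanted cells against WT microglia and -1.07 in the KO pair, beside medians of 0.00, -0.03 and -0.02 over all genes. Slc16a3, the carrier best known for lactate release from glycolytic cells, stood at 1872, 1869 and 1662 in normal microglia S20, S21 and S36, and at 3246, 3391 and 4015 in WT 5xFAD S22 to S24. KO 5xFAD microglia held 2003, 2047 and 2218 in S25 to S27. WT donor cells held 1515, 1652, 1877 and 1982 in S28 to S31, and KO donor cells held 977, 1186, 746 and 972 in S32 to S35. In each pair of genotypes every WT library was above every KO library. The Trem2 difference was 0.76 in microglia (SE 0.15, adjusted p = 0.00484) and 0.87 in transplanted cells (SE 0.13, adjusted p = 0.00243), and the difference between these 2 effects was 0.11 (adjusted p = 0.824, 95% interval -0.31 to 0.52). The first call was lost without S25 and S27 together and the second without S30 and S31 together, while both held without any single library. Against normal microglia the rise in WT 5xFAD microglia was 0.97 (SE 0.15, adjusted p = 0.000553). WT transplanted cells were close to KO microglia, with a difference of -0.26 (adjusted p = 0.164, 95% interval -0.55 to 0.04).

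Slc16a1, which carries lactate, pyruvate and ketone bodies in both directions, held 718, 619 and 684 in normal microglia, 1171, 1195 and 1082 in WT 5xFAD microglia, and 723, 604 and 783 in KO 5xFAD microglia. Transplanted cells were below every microglia library, at 262 to 418 with WT donors and 279 to 365 with KO donors. The difference was 0.77 for WT 5xFAD against normal microglia (SE 0.18, adjusted p = 0.0164), a call lost without S21, S36, S22 or S23. It was 0.72 for WT against KO microglia (SE 0.18, adjusted p = 0.0239), a call lost without S22, S23, S24 or S25. Between transplanted cells and microglia it was -1.72 in WT and -1.07 in KO cells (adjusted p = 2.82e-07 and 8.81e-05). The related carriers Slc16a6 and Slc16a9 were also lower in both pairs, Slc16a6 by -0.95 and -0.88 and Slc16a9, a carnitine and creatine carrier at 49.1 to 107 in microglia, by -2.05 and -3.63. Slc16a8 rose from 0 to 5.71 in normal microglia to 29.5 to 47.5 in WT 5xFAD microglia, a call lost without S36 or S24. It was not called for Trem2 in microglia. Its recovered reads were few, at 30, 55 and 73 in WT S22 to S24 and 54, 21 and 43 in KO S25 to S27. Slc16a7 went the other way in KO cells, higher in transplanted cells than in microglia by 0.60 (SE 0.16, adjusted p = 0.00811).

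Slc2a1, Slc16a1 and Slc16a3 take up glucose and pass on lactate, and all were highest among the microglia groups in WT 5xFAD libraries. Their promoter windows (RefSeq, GRCm38.p6, from 250 bases before to 50 bases after the start) are printed to show a motif that these starts share. Capitals mark ACGTG on either strand, a form of the core of the hypoxia response element bound by Hif1a. It overlaps the E-box CACGTG, and only ACGTG is meant by the core below. The core was 1 of 5 motifs searched on both strands of these windows. All 3 windows hold it, and none of the windows of Slc25a25 and Slc44a1 does, though both genes were also called higher in WT 5xFAD than in normal and KO microglia. The windows of Slc2a5, Slc2a6 and Slc5a10 do not hold ACGTG either. The related form GCGTG was not searched for, and the Slc2a6 window holds it. The core is in 19.7% of the 32544 promoter windows of the table and 26% of the 262 windows found for 199 of the members. The E-box occurs in 7.17% of all windows. The other motifs were the ETS core GGAAGT, found in 23.7% of all windows, the longer PU.1 site GAGGAAGT that contains it, found in 3.11%, and the AP-1 site TGANTCA, found in 7.79%.
Slc2a1 promoter, chr4:119108495-119108794, plus strand: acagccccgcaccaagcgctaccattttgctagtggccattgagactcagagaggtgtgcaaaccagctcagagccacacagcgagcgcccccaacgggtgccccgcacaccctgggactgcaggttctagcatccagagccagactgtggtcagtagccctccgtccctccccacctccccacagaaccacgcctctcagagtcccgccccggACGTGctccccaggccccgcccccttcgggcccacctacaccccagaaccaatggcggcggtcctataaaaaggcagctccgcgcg
Slc16a1 promoter, chr3:104638414-104638713, plus strand: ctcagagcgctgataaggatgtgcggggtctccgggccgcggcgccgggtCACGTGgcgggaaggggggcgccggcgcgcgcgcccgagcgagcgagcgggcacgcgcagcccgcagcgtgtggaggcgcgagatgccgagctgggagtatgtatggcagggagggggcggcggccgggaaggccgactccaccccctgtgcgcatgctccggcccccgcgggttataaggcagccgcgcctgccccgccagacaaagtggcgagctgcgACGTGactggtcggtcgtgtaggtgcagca
Slc16a3 promoter, chr11:120948817-120949116, plus strand: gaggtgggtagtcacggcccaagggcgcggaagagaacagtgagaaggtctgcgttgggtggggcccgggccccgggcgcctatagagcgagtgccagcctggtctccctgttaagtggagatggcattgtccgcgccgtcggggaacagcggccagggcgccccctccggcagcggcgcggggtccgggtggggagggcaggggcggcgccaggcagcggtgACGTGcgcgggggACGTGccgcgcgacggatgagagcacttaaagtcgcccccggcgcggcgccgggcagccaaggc

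In Slc16a3 the core occurs at 27 and 14 bases before the start. In Slc2a1 it occurs once, and in Slc16a1 it occurs in an E-box and again after the start. A match describes the letters and is not a binding site. Hif1a itself, the oxygen-regulated factor, stood at 2069 to 2509 in normal microglia, at 6177, 5687 and 7622 in WT 5xFAD S22 to S24, and at 6942, 2558 and 6273 in KO 5xFAD S25 to S27. It was higher in WT 5xFAD than in normal microglia (1.54, SE 0.27, adjusted p = 0.00169). Its part in the levels of the carriers was not tested. All 8 transplanted libraries held 1898 to 3447.

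Amino acid carriers showed no call in WT 5xFAD against normal microglia and 1 for Trem2 in microglia, but 17 of 35 tested were called in the WT pair of transplanted cells and microglia (6 higher, 11 lower) and 22 in the KO pair (7 higher, 15 lower). The heavy chain Slc3a2, the shared partner of several light chains, was high in all groups, at 9340 to 16355 over the 17 libraries. Its light chains differed in direction. Slc7a5, which imports large neutral amino acids, stood at 4166, 3645 and 2636 in normal microglia S20, S21 and S36, at 2221, 2600.2 and 3234 in WT 5xFAD S22 to S24, and at 1457, 2836 and 1630.3 in KO 5xFAD S25 to S27. Transplanted cells held 1319 to 1640.5 with WT donors and 496 to 1295 with KO donors. The WT pair did not overlap and differed by -0.86 (SE 0.28, adjusted p = 0.0258), a call lost without S23, S24, S28 or S30, and the KO pair by -1.02 (SE 0.28, adjusted p = 0.0104). Slc7a7, which exchanges cationic for neutral amino acids, was lower in both pairs by -0.37 and -0.36 (adjusted p = 0.0261 and 0.0361), calls lost without S22, S23 or S29 in the first and without S26, S33, S34 or S35 in the second. Slc7a8, a neutral amino acid carrier, was called in none of the comparisons. Its libraries differed widely within groups, with 4197 and 4258 in S25 and S27 against 12925 in S26, and 3179 in S34 against 6316 to 7988 in the other KO donor libraries.

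The glutamine and neutral amino acid carriers of the Slc1 family moved apart. Slc1a5 stood at 168 to 341 over the microglia libraries, at 736, 929, 888 and 910 in WT donor cells and at 716, 672, 407 and 694 in KO donor cells, with no overlap between transplanted cells and microglia. It was higher by 1.55 in the WT pair (SE 0.20, adjusted p = 1.23e-05) and by 1.37 in the KO pair (SE 0.20, adjusted p = 5.58e-05). Slc1a4, a serine and alanine carrier, was lower by -1.33 and -1.31 (adjusted p = 0.00128 and 0.00153). Slc43a1 and Slc36a2, carriers of large neutral and of small amino acids, fell from 36.4 to 67.3 and 31.2 to 104 in microglia to at most 6.57 and 9.33 in transplanted cells. The cationic amino acid carrier Slc7a2 went from 1.08 to 30.5 in microglia to 49.2 to 132 in transplanted cells, and its relative Slc7a4 from 39.6 to 103 to 189 to 322. Slc7a4 was also the 1 amino acid carrier called for Trem2 in microglia, lower in WT than in KO libraries (-1.16, SE 0.28, adjusted p = 0.0224). That call was lost without any 1 of S22, S23, S24, S25 or S27. Slc16a10, which carries aromatic amino acids, was higher in both pairs by 0.82 and 0.99 (adjusted p = 0.0058 and 0.00152).

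The cystine carrier Slc7a11 had a Trem2 effect that differed between cell origins. In microglia, WT libraries held 90.4, 117 and 96.4 and KO libraries 198, 117 and 240 (S25 to S27). In transplanted cells, WT libraries held 55.9, 125, 164 and 140 (S28 to S31) and KO libraries 28.95, 30.8, 30.9 and 69.3 (S32 to S35). The WT libraries were thus at or below the KO libraries in microglia and mostly above them in transplanted cells, with S28 and S35 overlapping. The difference between the effects was 2.38 (SE 0.53, adjusted p = 0.0176), a call lost without S22, S25 or S27. In transplanted cells alone it was 1.57 (SE 0.35, adjusted p = 0.0185), a call lost without S30, S31 or S34. The glutamine carrier Slc38a2 differed between origins the other way (-0.72, SE 0.18, adjusted p = 0.0364), a call that 9 of the 14 single libraries each ended (S22, S23, S24, S25, S27, S30, S31, S33 and S35).

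Ion carriers were the largest group, with no call among 57 in WT 5xFAD against normal microglia. In the WT pair of transplanted cells and microglia 9 were higher and 14 lower, and in the KO pair 13 were higher and 9 lower. Slc12a2, which brings sodium, potassium and chloride into the cell, had the smallest p of all members in the WT pair. It stood at 2458, 2389 and 2010 in normal microglia S20, S21 and S36, at 3452, 3550.0 and 3532 in WT 5xFAD S22 to S24, and at 2099, 2218 and 1721 in KO 5xFAD S25 to S27. In transplanted cells it held 282, 209, 373 and 381 with WT donors and 280, 220, 146 and 147 with KO donors. The difference was -3.53 in the WT pair (SE 0.22, adjusted p = 1.05e-09) and -3.38 in the KO pair (SE 0.22, adjusted p = 2.61e-09). WT 5xFAD libraries were above all normal and KO microglia libraries for this carrier too, but neither difference passed the test (0.62, adjusted p = 0.179, and 0.81, adjusted p = 0.0573), and the Trem2 difference in transplanted cells was 0.66 (adjusted p = 0.0587). The sodium and calcium exchanger Slc24a3 fell from 374 to 745 in microglia to 33.02 to 84.0 in transplanted cells, and the zinc carrier Slc39a12 from 263 to 554 to 24.3 to 60.5, and neither range overlapped.

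Other ion carriers were higher in transplanted cells. Slc26a11, a sulfate and chloride carrier linked to lysosomes, held 107 to 317 in microglia, 867 to 1046 with WT donors and 811 to 1379 with KO donors, and was higher by 2.53 and 3.08 (SE 0.24 for both, adjusted p = 2.82e-07 and 2.84e-08). The magnesium carrier Slc41a2 stood at 0 to 19.6 in microglia and 104 to 240 in transplanted cells. Slc8b1, the sodium and calcium exchanger of mitochondria, held 929 to 1414 in microglia and 1615 to 2702 in transplanted cells and rose by 1.19 and 1.04 (adjusted p = 5.38e-06 and 2.92e-05). Slc26a10 was higher in both pairs as well, by 1.43 and 1.30 (adjusted p = 4.63e-06 and 1.64e-05). The endosomal sodium and proton exchanger Slc9a9 rose in steps: 4193 to 6145 in microglia, 7563, 7197, 6557 and 6549 in WT donor cells S28 to S31, and 9957, 9193, 9551 and 9321 in KO donor cells S32 to S35. These 3 ranges did not overlap. Slc9a9 was higher by 0.56 in the WT pair (SE 0.09, adjusted p = 0.000153) and by 1.10 in the KO pair (SE 0.09, adjusted p = 6.12e-08). It was lower in WT than in KO donor cells by -0.45 (SE 0.09, adjusted p = 0.00883), a call that held without any single library and was lost without S30 and S31 together.

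Of the 57 ion carriers tested, 2 were higher and none lower in WT than in KO microglia, and 3 were higher and 6 lower in WT than in KO donor cells. The zinc carrier Slc39a4 was higher in WT than in KO cells of both origins, with a difference of 0.73 for microglia (SE 0.20, adjusted p = 0.0437) and 0.89 for donor cells (SE 0.18, adjusted p = 0.0109). Its libraries held 512, 547 and 548 in WT against 299, 373 and 298 in KO microglia, and 471, 686, 680 and 876 in WT against 383, 371, 289 and 400 in KO donor cells (S28 to S35), with no overlap in either pair. The microglia call was lost without any 1 of S22, S23, S24, S25 or S27, and the transplant call without S31. Slc11a2, the divalent iron carrier, was higher in WT than in KO microglia by 0.75 (SE 0.19, adjusted p = 0.0264), a call lost without any 1 of the same 5 libraries. Its KO libraries held 523, 974 and 519 in S25 to S27, with S26 near the WT libraries at 1024 to 1116. The other zinc carriers called in donor cells went both ways. Slc39a13 was higher in WT donor cells by 0.58 (SE 0.16, adjusted p = 0.0378), a call lost without S29, S30, S31, S32 or S34. Slc39a10 and Slc30a9, named after their values were seen, were lower (-0.50 and -0.53, adjusted p = 0.0387 and 0.0428). The zinc carrier of the Golgi Slc30a5 had a different Trem2 effect in both origins (-0.75, SE 0.17, adjusted p = 0.0209), a call lost without S22, S25, S27 or S30.

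Slc16a3, Slc25a25 and Slc39a4 were the 3 members called for Trem2 in both origins, all higher in WT cells. They made up 27.3% of the 11 microglia calls and 11.5% of the 26 transplant calls, and these comparisons share no libraries. Across the 234 members, the correlation of both Trem2 differences was 0.03. Neither the overlap nor the correlation was computed over all genes, so whether members differ here from genes in general is not known. The median member was higher in WT microglia by 0.20, beside 0.01 over all genes, but without S25 and S27 it was 0.02 beside 0.01. In transplanted cells the median was 0.14 beside 0.05 over all genes. The split of the transplant calls also turned with the test: limma gave 16 higher and 10 lower, and edgeR on recovered reads gave 12 higher and 15 lower.

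**Figure D4:**
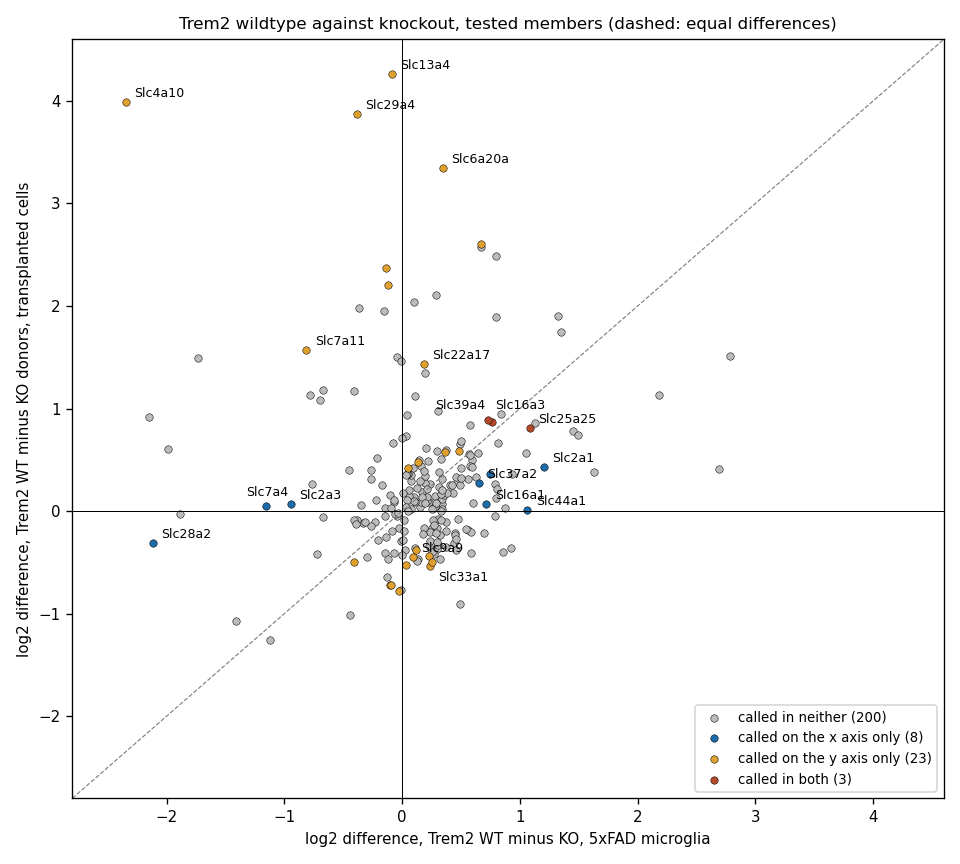
Log2 difference between Trem2-WT and Trem2-KO cells for each of the 234 tested members, in 5xFAD microglia on the x axis and in transplanted cells on the y axis; colours give where a member was called. The 3 members called in both (Slc16a3, Slc25a25 and Slc39a4) lie near the dashed line of equal differences, and Slc44a1 lies near 0 on the y axis.

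Slc44a1, the choline carrier of the plasma and mitochondrial membranes, had the smallest p among members in both microglia comparisons, and its Trem2 effect was not seen in transplanted cells. It stood at 995, 977 and 1072 in normal microglia S20, S21 and S36, and at 2139, 2062 and 2002 in WT 5xFAD S22 to S24. KO 5xFAD microglia held 909, 1015 and 1046 in S25 to S27. WT donor cells held 3717, 3485, 3885 and 4176, and KO donor cells held 3715, 3832, 3908 and 3635. WT 5xFAD microglia were thus apart from normal and KO microglia, and both kinds of transplanted cells were above all microglia and overlapped each other. The difference was 1.03 between WT 5xFAD and normal microglia (SE 0.10, adjusted p = 5.21e-06) and 1.06 between WT and KO microglia (SE 0.10, adjusted p = 4.13e-06). In transplanted cells the Trem2 difference was 0.01 (adjusted p = 0.931, 95% interval -0.17 to 0.20). The difference between these Trem2 effects was -1.05 (SE 0.13, adjusted p = 0.000139), and this call held without any single library and without S25 and S27 or S30 and S31.

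That test of whether the Trem2 effect differed between cell origins called 8 members (3.42%, where 2.82% of all genes were called, 1.95% higher and 0.87% lower). Besides Slc44a1, Slc7a11, Slc38a2 and Slc30a5 they were Slc9a9 (-0.54, adjusted p = 0.0294), the acetyl-CoA carrier Slc33a1 (-0.77, adjusted p = 0.0141), Slc28a2 (1.81, adjusted p = 0.0465) and Slc4a10 (6.33, adjusted p = 0.00258). Slc4a10 rested on few recovered reads. They numbered 6, 2 and 9 in WT and 68, 6 and 26 in KO 5xFAD microglia (S22 to S27). Donor cells held 30, 28, 53 and 29 with Trem2-WT and 6, 2, 0 and 2 with Trem2-KO (S28 to S35). The part of choroid plexus RNA in this difference was not tested. Slc9a9 lost its call without S22, S23, S24, S25, S27, S30, S31, S32 or S33, Slc33a1 without S22 or S27, and Slc28a2 without any 1 of 11 of the 14 libraries. The count was 37 without S26, 14 without S28, 10 or 9 without S29, S32, S34 or S35, 5 without S23, S24, S31 or S33, 4 without S25 or S30 and 2 without S22 or S27. Without S25 and S27 together only Slc44a1 was left.

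WT donor cells against KO 5xFAD microglia, the comparison of the transplant with the cells it was meant to replace, shares both of its groups with comparisons above. Slc44a1 was higher by 1.95 (SE 0.09, adjusted p = 3.99e-11), Slc2a6 by 2.55 (SE 0.20, adjusted p = 2.92e-08), and Slc2a5 lower by -4.23 (SE 0.26, adjusted p = 1.24e-09). Slc37a2 was higher by 0.54 (SE 0.13, adjusted p = 0.00439), a call lost without S25 and S27, and Slc2a1 by 0.51 (SE 0.15, adjusted p = 0.0142), a call lost without S25. Slc2a1 stayed below every WT 5xFAD microglia library in all 4 WT donor libraries.

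Of the 7 nucleoside carriers, Slc28a2, which concentrates purine nucleosides, was called in 4 of the 6 comparisons between groups. It held 80.4, 52.3 and 27.2 in normal microglia S20, S21 and S36, 30.5, 31.6 and 18.9 in WT 5xFAD S22 to S24, and 126, 86.5 and 147 in KO 5xFAD S25 to S27. Transplanted cells held 193, 208, 197 and 305 with WT donors and 347, 303, 277 and 194 with KO donors. All transplanted libraries were above all microglia libraries, and all KO microglia were above all WT 5xFAD microglia. The Trem2 difference in microglia was -2.11 (SE 0.36, adjusted p = 0.00132), a call lost without S25 and S27. The difference between transplanted cells and microglia was 3.03 in WT and 1.22 in KO cells (adjusted p = 1.45e-06 and 0.0111). The neutrophil marker sum stood apart in the same KO microglia libraries, and its part in the result was not tested. Slc29a2 was higher by 0.99 and 0.67 (adjusted p = 0.0015 and 0.0232) and the purine base carrier Slc43a3 lower by -1.70 and -1.20 (adjusted p = 0.00153 and 0.0195) in the WT and KO pairs. The KO calls for Slc29a2 and Slc43a3 were lost without S25 or S27, and that for Slc29a2 also without S33. Slc29a4, which also carries monoamines, held 22.4, 69.4, 38.1 and 42.7 in WT donor cells S28 to S31 and 0.97, 0, 0 and 30.2 in KO donor cells S32 to S35, so that the groups overlapped. Its Trem2 difference there was 3.87 (SE 1.00, adjusted p = 0.0316), a call lost in edgeR, in DESeq2 and without any 1 library except S28 and S35. The equilibrative carrier Slc29a1 and the lysosomal Slc29a3 were called in none of the comparisons. Slc29a3 held 5779 and 5366 in S25 and S27 and 6721 in S34 against 8543 to 15352 in all other libraries.

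Of 40 mitochondrial carriers tested, 5 were higher and 4 lower in the WT pair of transplanted cells and microglia, and 1 was higher and 4 lower in the KO pair. Slc25a10, which exchanges dicarboxylates for phosphate, was the 1 member of this group higher in the KO pair. It held 539 to 803 in microglia, 2294, 1824, 2970.4 and 2736 in WT donor cells and 1952, 1955, 1541 and 2099 in KO donor cells. It was higher by 1.90 and 1.58 (SE 0.17 for both, adjusted p = 6.82e-08 and 1.08e-06). Slc25a25, an ATP and phosphate carrier regulated by calcium, followed Slc16a3. It held 625, 601 and 724 in normal microglia, 1388, 1448 and 1597 in WT 5xFAD microglia and 639, 730.0 and 722 in KO 5xFAD microglia. The difference was 1.19 against normal (SE 0.20, adjusted p = 0.00138) and 1.08 against KO microglia (SE 0.20, adjusted p = 0.00291). WT donor cells held 791, 1072, 1419 and 1527 against 695, 727, 516 and 743 in KO donor cells (0.81, SE 0.17, adjusted p = 0.0164). The transplant call was lost without S30, S31 or S34. Slc25a5, the ADP and ATP exchanger and the member of highest level per length in 4 of the 5 groups, was lower in transplanted cells by -0.46 and -0.35 (adjusted p = 0.0031 and 0.0214), the latter lost without S25, S27 or S35. The mitochondrial iron carrier Slc25a37 was lower in the WT pair by -1.65 (SE 0.32, adjusted p = 0.000714).

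Nucleotide sugar carriers, which supply the Golgi, had 4 lower and none higher of 23 in the WT pair, and 4 lower and 2 higher in the KO pair. Slc35e3 was lower in both by -1.08 and -0.73 (adjusted p = 3.71e-05 and 0.00187), with 599 to 1168 in microglia and 350 to 492 in transplanted cells. The UDP-N-acetylglucosamine carrier Slc35a3 was lower in WT than in KO donor cells (-0.72, SE 0.17, adjusted p = 0.0247), a call lost without S29, S30, S31 or S34.

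Carriers of other solutes included several of iron, haem and peptides. Slc48a1, which moves haem out of the phagolysosome, held 1249 to 1592 in microglia, 2185, 2239, 3190 and 3358 in WT donor cells and 1869, 2043, 1496 and 2323 in KO donor cells, higher by 0.82 in WT cells (SE 0.17, adjusted p = 0.00115). Slc46a1, the folate carrier that also takes haem, was lower in transplanted cells by -0.62 and -0.87 (adjusted p = 0.00508 and 0.000308), at 1770.4 to 3027 against 3677 to 5358 in microglia. The urea carrier Slc14a1 rose from 58.9 to 131 in microglia to 393 to 538 in transplanted cells, and the peptide carrier Slc15a2 fell from 74.9 to 205 to 36.8 to 73.5. The lysosomal peptide carrier Slc15a4 was called in none of the comparisons, while its relative Slc15a3 was higher in WT than in KO donor cells (0.58, SE 0.15, adjusted p = 0.0309), a call lost without S29, S30, S31, S32, S34 or S35. Slc22a17, a receptor for iron-loaded lipocalin 2, was higher in WT than in KO donor cells (1.43, SE 0.24, adjusted p = 0.00523), at 436, 582, 799 and 644 against 280, 225, 127 and 303 (S28 to S35). That call held without any single library. Every WT donor library was above every KO donor library, and the call was lost without S30 and S31 together.

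Several called members are better known from astrocytes or the choroid plexus than from myeloid cells. The sets of them below are set beside the markers of those cells. Because the sets were chosen with the values in view, they cannot show whether carriers of those cells in general followed the markers. Members outside the sets were not compared with the markers. The 6 astrocyte carriers Slc1a2, Slc6a11, Slc4a4, Slc7a10, Slc38a3 and Slc25a18, grouped after their values were seen, summed to 189 to 365 in normal microglia, 372.5 to 945 in 5xFAD microglia and 84 to 202 in transplanted cells. Every 5xFAD microglia library was above every transplanted library, while normal microglia S20 and S21 overlapped the WT donor cells. The astrocyte marker list (8 of 8 genes in the table, none at 0 in any group) summed to 4473 to 7843 in microglia and to 602 to 1102 in transplanted cells. S20 and S21, which overlapped WT donor cells in the carriers, held marker sums of 4684 and 4613. Of the 6 carriers, Slc6a11, Slc4a4 and Slc25a18 were called lower in both pairs. The part of astrocyte RNA in these results was not tested. The 6 choroid plexus carriers Slc4a10, Slc13a4, Slc6a20a, Slc29a4, Slc22a8 and Slc5a5, grouped in the same way, summed to 95.1, 209, 318 and 245 in WT donor cells S28 to S31 and to 10.6, 7.5, 3.2 and 85.8 in KO donor cells S32 to S35. The choroid plexus and ependyma list (5 of 5 genes in the table, none at 0 in any whole group) summed to 3201, 15950, 11870 and 11750 in the first and to 226, 243, 71.4 and 2845 in the second. S35, the KO donor library with the highest marker sum, also had the highest sum of carriers, and S25 and S27 had the highest of both in microglia. Among WT donor libraries, S29 had the highest marker sum but a lower sum of carriers than S30 and S31. Slc4a10, Slc13a4, Slc6a20a and Slc29a4 were called higher in WT than in KO donor cells, all at levels of at most 89.4. Of these, Slc13a4, Slc6a20a and Slc29a4 each lost the call without S30, S31 or S34, and Slc4a10 without S30 and S31 together. The part of choroid plexus RNA in these calls was not tested.

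**Figure D5:**
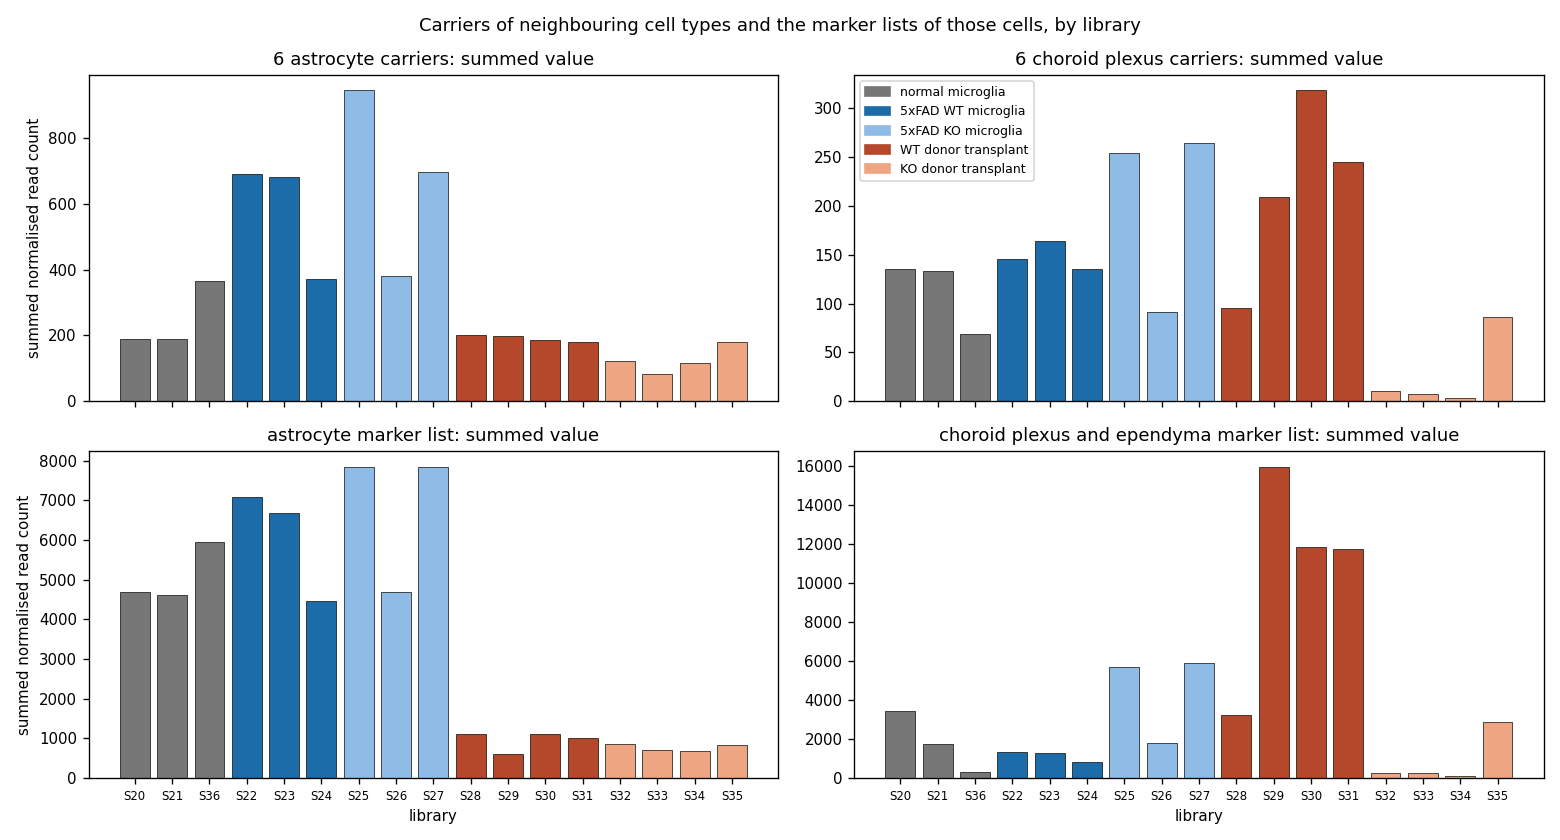
Summed normalised read counts by library for 6 astrocyte carriers and 6 choroid plexus carriers (top) and for the marker lists of the same cells (bottom), with bars from 0 coloured by group. Astrocyte markers are lower in the 8 transplanted libraries than in all microglia, astrocyte carriers are lower there than in all 5xFAD microglia, and choroid plexus carriers and markers are both high in S29, S30 and S31 and low in S32, S33 and S34.

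Genes that work with the carriers were followed in 3 lists. Of 13 ancillary and trafficking proteins, 2 were higher in WT 5xFAD than in normal microglia and none lower: Arrdc4, an arrestin that pulls glucose carriers from the membrane (1.07, SE 0.19, adjusted p = 0.00219), and the kinase Sgk1, which keeps many carriers at the membrane (0.77, SE 0.20, adjusted p = 0.0403). Both were also higher in WT than in KO microglia (0.87 and 0.91), where Emb, the chaperone of lactate carriers, was lower (-2.38, SE 0.29, adjusted p = 6.24e-05). Emb held 144, 143 and 108 in WT 5xFAD S22 to S24 and 991, 346 and 932 in KO S25 to S27, and S26 was also the KO library with the lowest neutrophil marker sum. The part of neutrophils in this result was not tested. Arrdc4 and Sgk1 were lower in WT transplanted cells than in WT microglia (-1.31 and -1.44, adjusted p = 1.9e-05 and 1.26e-05). In all, 2 of the 13 were higher and 3 lower in the WT pair, 1 and 1 in the KO pair, and none was called for Trem2 in transplanted cells.

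Of 16 transcription factors of carrier genes and their stress targets, 2 were higher in WT 5xFAD than in normal microglia and 1 in WT than in KO microglia. In the WT pair 3 were higher and 2 lower, and in the KO pair 2 and 3. Nfe2l2, the factor of antioxidant genes that include Slc7a11, was higher in transplanted cells in both pairs (0.52 and 0.98, adjusted p = 0.00148 and 2.12e-06). Of 22 solute carriers with another name, 19 were tested, and 2 were higher and none lower in each of the 3 comparisons within microglia or within transplanted cells. The phosphate and ATP exporter Ank stood at 828 to 1031 in normal microglia, 9526 to 10630.5 in WT 5xFAD, 1205 to 1481 in KO 5xFAD and 1888 to 2491 in all transplanted libraries. Like Slc44a1, it had a difference between Trem2 effects (-2.97, adjusted p = 9.3e-09), but its transplanted cells stayed well below the WT 5xFAD microglia. The lysosomal cysteine carrier Mfsd12 was higher in WT than in KO cells of both origins (0.99 in microglia and 0.73 in transplanted cells, adjusted p = 0.00602 and 0.0247), and the mitochondrial carrier Ucp2 was higher in transplanted cells in both pairs (0.75 and 0.72, adjusted p = 0.00048 and 0.00079).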

How the data were processed

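RNA of 17 libraries was made with SMART-Seq v4 from sorted brain cells and sequenced on a NovaSeq, per the labels' protocols. The submitters' processing notes name bcl2fastq, STAR 2.5.2b, HTSeq, RSEM and DESeq2 (given as 3.17), with mm10 and GRCm38.p6. The authors deposited 1 table of normalised read counts, a signal proportional to reads in each library. Dividing each column by its smallest step gave whole reads for at least 99.99% of values (tolerance 0.02), with 16044078 to 30606394 reads per library. No column lacked a sample.

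Groups were taken from the labels. The main test was limma 3.58.1 (R 4.3.3, trended empirical Bayes) on log2(value + 1) over all 17 libraries, with Benjamini-Hochberg adjustment over 12074 genes with a value of at least 10 in at least 3 libraries; a call is an adjusted p below 0.05. edgeR 4.0.16 and DESeq2 1.42.0 on recovered reads, other pseudocounts, filters, normalisations and weights, and left-out libraries were alternatives. The scripts were tested on simulated data. Levels per kb used GENCODE vM21 exon lengths.

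Members, substrate groups and gene lists were chosen with earlier results of these data known. Genes named are a fixed set of carriers, up to 3 called members of each substrate group, comparison and direction with the smallest p, up to 2 such genes of each list, Trem2 and markers. Carriers at 0 or near it, and the astrocyte and choroid plexus carriers, were named after their values were seen. Some items are not reported here.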

Additional observations from a re-analysis of the deposited data

Results flagged for a closer look

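In the groups of 4 transplanted libraries, 90 named members gave 180 sets of 4 values. In 20 of these sets 1 library was farther from the rest than Dixon's 95% limit. Chance flags about 1 in 20 sets where values are normally distributed, and the normalised counts were used here without a log scale. S34 accounted for 8 of the 20 flags. It was the lowest KO donor library for Slc16a10 (275.89, others 350.96 to 365.79), Slc1a5 (406.91, others 672.04 to 716.14), Slc2a1 (1305.9, others 1777.2 to 1834), Slc2a3 (332.34, others 623.51 to 672.71), Slc35c2 (3123.2, others 4036.1 to 4216.7), Slc37a1 (145.93, others 193.03 to 202.56) and Slc8b1 (1614.8, others 2384.7 to 2475.4). It was the highest for Slc16a9 (22.37, others 1.87 to 4.12).

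S35 was the highest KO donor library in 6 values: Slc13a4 (23.35), Slc29a4 (30.21), Slc35g2 (6.87), Slc5a10 (3.43), Slc6a20a (21.29) and Slc7a11 (69.35). Among WT donor libraries, S28 was the highest for Slc2a5 (1636.1) and Slc5a10 (12.3), S29 for Slc1a4 (234.25), S30 for Slc43a1 (6.57) and Slc4a10 (69.66), and S31 for Slc28a2 (304.92). In the flags for Slc13a4, Slc35g2, Slc43a1 and Slc5a10 all other libraries of the group were at 0, so these flags rest on a few reads in a single library.

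The Trem2 effect differed between transplanted cells and microglia, by the limma test of that difference, for 8 members. The log2 difference of effects was -1.05 for Slc44a1, 6.33 for Slc4a10, -0.77 for Slc33a1, 2.38 for Slc7a11, -0.75 for Slc30a5, -0.54 for Slc9a9, -0.72 for Slc38a2 and 1.81 for Slc28a2.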

How the results depend on the processing

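No paired analysis was possible because the columns of 4 of the 5 groups all carry the number 1. Pseudocounts, filters and quantile normalisation left every count of called members within 1.5 times. The count for WT 5xFAD against normal microglia was 8, and 41 with only the compared groups fitted, 49 with array weights, 5 with the closest libraries averaged (an alternative chosen after seeing the data) and 5 to 7 without any 1 library of the groups compared, to which the ranges below also refer. For Trem2 in microglia it was 11, and 22 in DESeq2, 110 with array weights, 3 without S25 and S27, 4 averaged and 5 to 67 without any 1 library. For Trem2 in transplanted cells it was 26, and 47 in DESeq2, 2 with only the compared groups, 78 with array weights, 0 without S30 and S31, 2 averaged and 5 to 49 without any 1 library. Transplanted cells against microglia gave 84 in WT cells, 127 with array weights and 65 to 86 without any 1 library. The KO pair gave 88, 146 with array weights, 55 without S25 and S27 and 64 to 113 without any 1 library. WT donor cells against KO microglia gave 97, 51 without S25 and S27, 50 averaged and 68 to 119 without any 1 library. The test of the difference between Trem2 effects gave 8, 13 in edgeR, 25 in DESeq2, 94 with array weights, 1 without S25 and S27, 2 without S30 and S31, 1 averaged and 2 to 37 without any 1 library. In that test edgeR gave 3 higher and 10 lower, and in 5xFAD against normal microglia DESeq2 gave 9 higher and 3 lower.

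Differences near 0 changed sign. Slc44a1 for Trem2 in transplanted cells was -0.093 with quantile normalisation, -0.058 in edgeR, -0.067 without S30 and S31, -0.013 averaged, and -0.03 (S31) to 0.057 (S29) without any 1 library, with -0.004 without S35. Slc2a1 in the KO pair was -0.116 without S25 and S27 and -0.013 (S25) to 0.198 (S34) without any 1 library. The difference of Trem2 effects for Slc16a3 was -0.036 without S30 and S31 and -0.013 (S34) to 0.21 (S33) without any 1 library. The cause of these changes was not tested. The 28 members that did not reach 10 normalised reads in at least 3 libraries were not tested.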
